A study of Mus musculus with 18 samples.

Results

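Interferon-stimulated genes were followed in the mouse carotid artery before and after wire injury, a procedure that strips the endothelium and stretches the vessel wall. The set held 9 genes, chosen by symbol: Ifit1, Ifit3, Isg15, Ifi27l2a, Irf7, Stat2, Bst2, Ifitm2 and Ifitm3. All 9 were among the 35655 genes of the count table, and all 9 passed the filter on low counts that left 10312 genes for testing. The data were 18 libraries of 3′ mRNA tags (nanoMACE, which sequences the end of a transcript next to its poly-A tail and counts unique molecular identifiers). They came from vessel tissue cut out of frozen sections with a laser, as far as the outer elastic lamina and including any neointima, with up to 70 sections collected per extraction. The groups were day 0, labelled pre-injury (4 libraries), and days 7 (4), 14 (3), 21 (4) and 28 (3) after injury.

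All mice were wild-type (WT) C57/BL6, and all tissue was carotid artery. Per the study's methods, males were injured at 11 weeks of age on normal chow, on the left side only. The right carotid served as the control, and thrombosed vessels were removed. The labels give 3 mouse numbers to both a day 0 and a day 21 library, and whether day 0 tissue came from animals that were also injured is not stated in the sources used here. The samples are described as pooled, without a statement of how many animals each one held, so the p-values below measure the spread between libraries. In such bulk tissue, fewer cells of a type and less RNA per cell cannot be told apart.

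Interferons are secreted proteins that cells release on sensing foreign or misplaced nucleic acid. Type I interferons bind a receptor whose Janus kinases phosphorylate STAT proteins, STAT2 among them, and these join IRF9 to form a complex that binds the interferon-stimulated response element in the promoters of target genes. The 9 genes fall into 3 roles. Stat2 and Irf7 encode transcription factors of the pathway, Irf7 being the one that amplifies interferon production. Ifit1, Ifit3, Isg15 and Ifi27l2a encode inducible proteins inside the cell: the IFIT proteins act against viral RNA, ISG15 is a ubiquitin-like modifier, and Ifi27l2a encodes a small membrane-associated protein that is widely used as a marker of interferon exposure. Bst2 (tetherin), Ifitm2 and Ifitm3 encode membrane proteins that hinder the release or the entry of enveloped viruses.

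Promoter sequence is shown because it is the feature that the pathway acts on. The choice by symbol did not use it directly. The genes were, however, chosen as interferon-stimulated, so finding the element in them is not independent evidence. RefSeq promoter windows of 300 bases (most of it before the gene start, from its GRCm38.p6 table, each matched exactly once to GRCm39) were available for 8 of the 9 genes, the exception being Ifi27l2a. They were searched on both strands for GAAANNGAA, the core of the interferon-stimulated response element, whose reverse is TTCNNTTTC. The core was present in 7 of the 8 promoters, all but that of Irf7, against 8.53% of the 32544 distinct promoters in the table. The gamma-activated site, TTCNNNGAA, was present in 2 of the 8 (Bst2 and Ifitm3), against 8.33% of all promoters. In the stretches below, given 5′ to 3′ on the strand of the gene, capitals mark the core on either strand, and adjoining or overlapping cores run together.
Ifit1, chr19:34618160-34618233, plus strand: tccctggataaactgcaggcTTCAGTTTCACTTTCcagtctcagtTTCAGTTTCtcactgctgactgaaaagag
Ifit3, chr19:34560754-34560855, plus strand: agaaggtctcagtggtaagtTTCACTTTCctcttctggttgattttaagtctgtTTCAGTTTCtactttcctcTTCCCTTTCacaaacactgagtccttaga
Isg15, chr4:156285313-156285373, minus strand: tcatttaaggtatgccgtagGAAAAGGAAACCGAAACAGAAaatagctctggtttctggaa
Stat2, chr10:128106126-128106174, plus strand: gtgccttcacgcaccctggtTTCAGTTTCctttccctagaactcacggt
Bst2, chr8:71990212-71990266, minus strand: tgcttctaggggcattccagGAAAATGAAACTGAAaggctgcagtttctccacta
Ifitm2, chr7:140535892-140535940, minus strand: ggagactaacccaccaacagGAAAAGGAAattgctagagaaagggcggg
Ifitm3, chr7:140590610-140590675, minus strand: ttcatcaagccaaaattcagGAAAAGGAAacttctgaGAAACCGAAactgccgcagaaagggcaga
Ifit1, Ifit3 and Isg15 each held 3 cores, Bst2 and Ifitm3 held 2, and Stat2 and Ifitm2 held 1. In Isg15 the 3 cores overlapped, with first bases at -78, -72 and -66 from the RefSeq start, whereas in Ifit3 they were spread from -155 to -102. The single core of Stat2 lay at -221 and that of Ifitm2 at -46, and the cores of Ifitm3 lay just after the start. The RefSeq starts of Ifitm2 and Ifitm3 lie 354 and 625 bases inside the genes as GENCODE places them below, so these cores are within the GENCODE gene bodies, whereas for the other 6 the starts differ by at most 61 bases. A match of letters is a description and does not show that a factor was bound.

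By the GENCODE M39 annotation of GRCm39, all 9 are protein-coding, and 5 of them lie in neighbouring groups. Ifit3 (chr19:34560899-34566443) lies 51.8 kb before Ifit1 (chr19:34618271-34632174), both on the plus strand. On the minus strand of chromosome 7, Ifitm2 (chr7:140534738-140536228) and Ifitm3 (chr7:140589499-140591282) are 53.3 kb apart, and Irf7 (chr7:140842619-140846398) follows at 251.0 kb from Ifitm3. Isg15 is at chr4:156283883-156285303 (minus), Ifi27l2a at chr12:103399975-103409950 (minus), Stat2 at chr10:128106352-128128735 (plus) and Bst2 at chr8:71986895-71990114 (minus).

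Reads of related genes could have been split or mixed, because only the end of a transcript was sequenced. Of the 31-base words in the last 500 bases of the Ifitm2 transcripts, 39.0% also occurred in transcripts of other genes, most often in Gm45717, which overlaps it on the same strand and held 0 counts in the table. The share was 20.1% for Ifit3, nearly all of it in the neighbouring copy Ifit3b, and 16.2% for Ifitm3, whereas it was at most 7.54% for the other 6 genes and 0.0% for Irf7 and Bst2. Exons of Ifi27l2a and Irf7 overlap those of Ifi27 and Phrf1 on the other strand, and whether counting used strand is not stated, so reads of these pairs could not be told apart with certainty. Exons of Isg15 overlap those of Gm46878 on the other strand, a gene absent from the count table. Levels of Ifit3, Ifitm2, Ifitm3, Ifi27l2a, Irf7 and Isg15 are therefore less certain than those of the others.

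Library totals ranged from 440675 to 878310 counts, and levels are given as CPM, a gene's counts scaled to 1000000 counts of a library's total over tested genes after adjustment by trimmed mean of M-values. At these depths 3 counts were worth 3.55 to 6.98 CPM, so the lowest levels below rest on single counts. Changes are log2 fold changes, given as value ± standard error (SE), from edgeR's quasi-likelihood test fitted to all 18 libraries. The test gives no SE, so it was derived as the absolute log2 fold change divided by the square root of the F statistic. It is an approximation, above all where a group holds few counts. The p-values were adjusted by Benjamini-Hochberg over the 10312 genes, with 0.05 as the threshold. The labelled tissue was recognisable: 6 smooth muscle markers (Acta2, Myh11, Tagln, Cnn1, Smtn, Lmod1) summed to between 31500 and 36860 CPM at day 0, 1490 to 6973 at day 7 and 19940 to 28120 at day 28.

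A pair of libraries stood apart for these genes. Day 14 replicate 2 was the highest of the 3 day 14 libraries for 9 of the 9 genes, and the highest of all 18 libraries for 6 of them (Ifit1, Ifit3, Isg15, Ifi27l2a, Irf7 and Ifitm3). Over all tested genes this library was the highest of its day for 33.5%. Day 7 replicate 4 was the lowest of the 4 day 7 libraries for 9 of the 9 genes, against 32.2% of all tested genes. The summed level of the 9 genes was 3182 CPM in day 14 replicate 2 against 804.6 and 806.3 CPM in replicates 1 and 3, and 539.2 CPM in day 7 replicate 4 against 1385 CPM or more in the other three. Day 14 results of the 9 genes are therefore also given without replicate 2, and the day 7 summary without replicate 4.

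**Figure D1:**
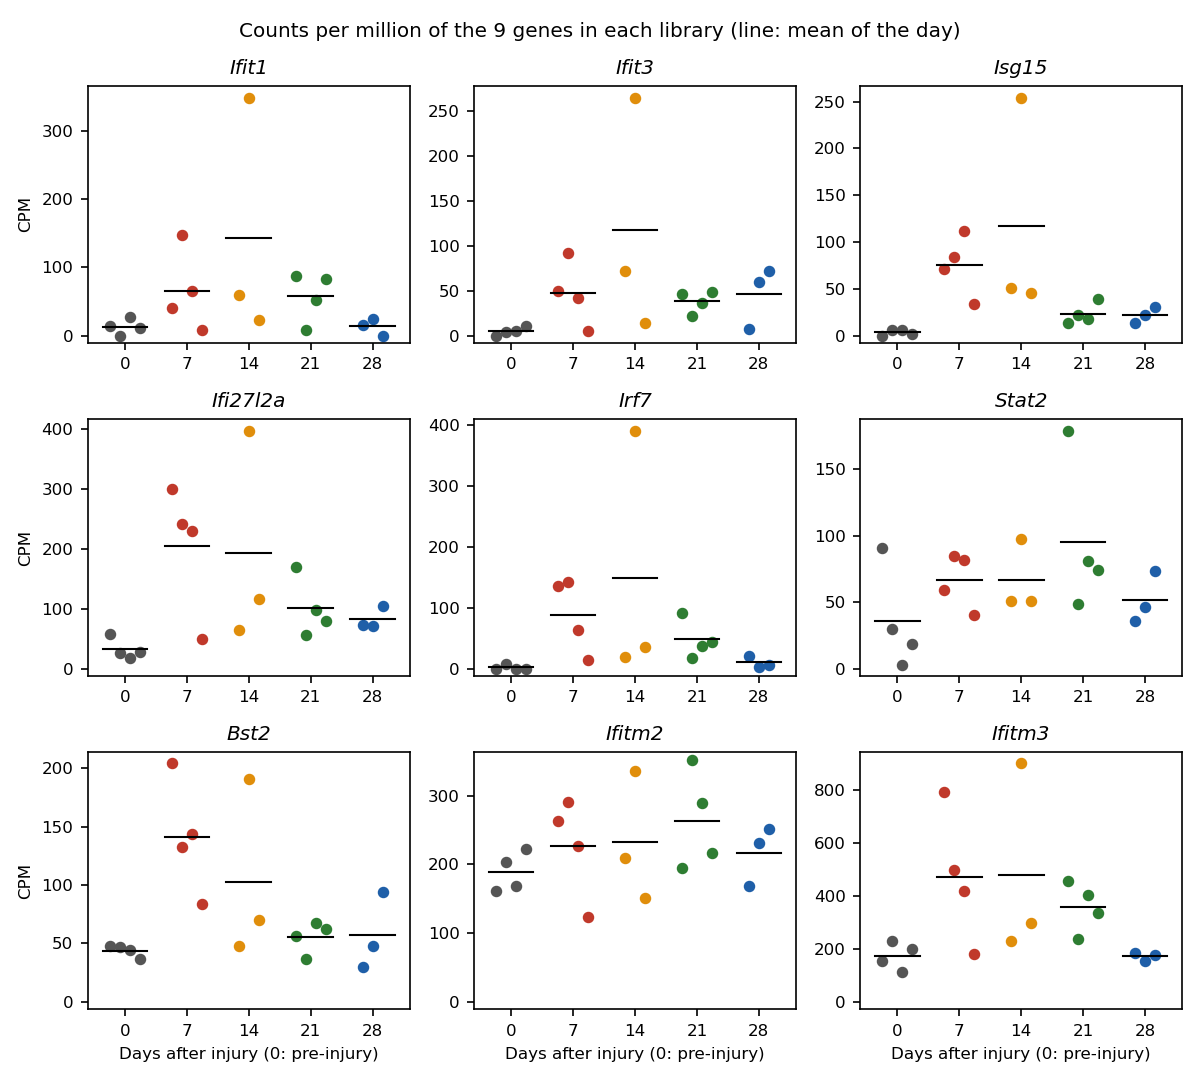
CPM (vertical axis, linear, one scale per gene) of each of the 9 genes in every library, by days after injury (horizontal axis), with a point per library in replicate order and a line at the mean of the day. Day 14 replicate 2, the middle point of its day, lies above the other day 14 libraries in all 9 panels, and day 7 replicate 4, the last point of its day, lies below the other day 7 libraries.

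Among the transcription factors, Irf7 was near 0 before injury and was counted in every library after it. At day 0 it held no count in replicates 1, 3 and 4 and 7 counts (8.37 CPM) in replicate 2. At day 7 its level was 135.3, 142, 63.8 and 14.5 CPM in replicates 1 to 4, at day 14 it was 19.2, 390 and 35.2 CPM, and at day 21 it was 92.3, 18.2, 37.8 and 44.2 CPM. By day 28 it was 21.5, 3.31 and 6.39 CPM. Every library of days 7, 14 and 21 thus lay above every day 0 library, whereas those of day 28 overlapped with day 0. Irf7 rose by 5.15 ± 1.05 (log2, SE) at day 7 (adjusted p = 0.000883), by 5.87 ± 1.07 at day 14 (adjusted p = 0.00118) and by 4.29 ± 1.06 at day 21 (adjusted p = 0.0116). The day 28 difference of 2.11 ± 1.26 did not pass (adjusted p = 0.451). The day 0 mean behind these folds, 2.09 CPM, rests on 7 counts in a single library. Without day 14 replicate 2 the day 14 difference was 3.46 ± 1.00 and the call was lost (adjusted p = 0.0706), and without day 21 replicate 1 the day 21 call was lost (adjusted p = 0.0508).

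Stat2, which encodes a signal transducer of the type I complex, gave a different picture. Its day 0 level was 90.8, 29.9, 2.98 and 18.4 CPM in replicates 1 to 4, a 30.5-fold range, where the median tested gene with a count in every library of that day spread 2.52-fold. Day 7 libraries were at 58.8, 84.5, 81.7 and 40.4 CPM, day 14 at 51.2, 97.1 and 50.9 CPM, day 21 at 178.6, 48.4, 80.6 and 74.5 CPM and day 28 at 35.9, 46.3 and 73.5 CPM. All later libraries lay above day 0 replicates 2, 3 and 4, but day 0 replicate 1 was higher than every library of days 7 and 28 and than all but 1 library at days 14 and 21. None of the 4 days passed against day 0, the nearest being day 21 with a difference of 1.45 ± 0.55 (adjusted p = 0.103). Day 0 replicate 1 decided this: without it Stat2 passed at day 7 (adjusted p = 0.0142), day 14 (0.0453) and day 21 (0.00602).

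Isg15, which encodes the ubiquitin-like modifier, was nearly absent before injury and rose at days 7, 14 and 21. At day 0 it was at 0, 5.98, 5.96 and 1.31 CPM, a total of 10 counts. Day 7 libraries held 71.2, 84.5, 111.6 and 33.9 CPM, day 14 libraries 51.2, 254.1 and 45.7 CPM, day 21 libraries 13.0, 22.2, 18.1 and 39.6 CPM and day 28 libraries 12.9, 21.5 and 30.4 CPM. Each library after injury lay above each day 0 library. Isg15 rose by 4.40 ± 0.70 at day 7 (adjusted p = 5.52e-05), by 5.03 ± 0.72 at day 14 (adjusted p = 7.1e-05) and by 2.67 ± 0.73 at day 21 (adjusted p = 0.0208). At day 28 its difference was 2.60 ± 0.76 (adjusted p = 0.093), with no overlap between the groups. Calls at days 7 and 14 held in 25 of 25 alternative analyses, among them the one without day 14 replicate 2 (3.76 ± 0.70, adjusted p = 0.00228). The day 21 call held in 20 of 24 and was lost without day 0 replicate 1 (adjusted p = 0.055) or 4 (0.0656), without day 21 replicate 4 (0.075) and with the mouse number as a block (0.113).

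Ifit3, one of the IFIT proteins, was at 0, 3.59, 4.47 and 10.5 CPM at day 0. It reached 49.9, 91.7, 41.9 and 4.84 CPM at day 7, where replicate 4 fell within the day 0 range. At day 14 it was at 72.0, 264.7 and 14.4 CPM, at day 21 at 46.1, 22.2, 36.2 and 48.9 CPM, and at day 28 at 7.18, 59.5 and 71.9 CPM. Days 14 and 21 lay wholly above day 0, and at day 28 replicate 1 overlapped. Ifit3 rose by 3.26 ± 0.88 at day 7 (adjusted p = 0.00929), by 4.57 ± 0.91 at day 14 (adjusted p = 0.00241) and by 2.97 ± 0.89 at day 21 (adjusted p = 0.0353). The day 28 difference was as large as that of day 7, 3.23 ± 0.92, but did not pass (adjusted p = 0.0853). It passed without day 28 replicate 1 (adjusted p = 0.0177), while the day 7 call was lost without day 7 replicate 2 (0.0529) and the day 14 call without day 14 replicate 2 (3.11 ± 0.91, adjusted p = 0.0753). The day 21 call held in 18 of 25 alternative analyses and was lost without day 0 replicate 1, 2 or 3, without day 21 replicate 1, 3 or 4 and with the mouse number as a block, at adjusted p of 0.0553 to 0.137.

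Ifit1, its neighbour on chromosome 19, held 35 counts in all before injury and passed on 1 day only. Day 0 libraries were at 13.4, 0, 26.8 and 10.5 CPM and day 7 libraries at 41.0, 147.4, 65.8 and 8.07 CPM. Day 14 libraries were at 59.2, 349.4 and 22.2 CPM, day 21 libraries at 87.5, 8.07, 52.6 and 83.8 CPM and day 28 libraries at 15.8, 24.8 and 0 CPM. On every day at least 1 library overlapped with day 0. Ifit1 rose by 3.51 ± 0.95 at day 14 (adjusted p = 0.0242), a call that held in 18 of 25 alternative analyses. Without replicate 2 of that day the difference was 1.67 ± 0.97 (adjusted p = 0.596). The call was also lost without day 0 replicate 1 (adjusted p = 0.0555), 2 (0.0731) or 4 (0.0696), with DESeq2 (0.0588) and with the replicate number (0.176) or the mouse number (0.152) as a block. Its differences of 2.38 ± 0.91 at day 7 (adjusted p = 0.0689) and 2.22 ± 0.91 at day 21 (adjusted p = 0.139) did not pass, and at day 28 the difference was 0.13 ± 1.07. Without day 7 replicate 4, the day 7 difference passed (adjusted p = 0.0302).

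Ifi27l2a had a measurable level before injury, 58.1, 26.3, 17.9 and 27.6 CPM. It was at 299.1, 240.8, 229.2 and 50.1 CPM at day 7, at 64.0, 397.1 and 116.1 CPM at day 14, at 170.3, 56.5, 98.7 and 79.1 CPM at day 21 and at 73.3, 71.1 and 103.9 CPM at day 28. Days 14 and 28 lay above day 0 without overlap, while at days 7 and 21 the lowest library fell just below day 0 replicate 1. Ifi27l2a rose by 2.65 ± 0.53 at day 7 (adjusted p = 0.000689), by 2.56 ± 0.55 at day 14 (adjusted p = 0.0048) and by 1.66 ± 0.53 at day 21 (adjusted p = 0.0476). At day 28 the difference was 1.35 ± 0.56 (adjusted p = 0.243). The day 7 call held in 25 of 25 alternative analyses, the day 14 call was lost only without day 14 replicate 2 (1.47 ± 0.52, adjusted p = 0.188), and the day 21 call held in 10 of 25.

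Of the membrane proteins, Bst2 was tight before injury, at 47.6, 46.6, 44.7 and 36.7 CPM. It was at 204.8, 133, 143.5 and 84.0 CPM at day 7, all above day 0. At day 14 it was at 48.0, 190.6 and 70.5 CPM, at day 21 at 56.8, 36.3, 67.4 and 62.8 CPM and at day 28 at 30.2, 48.0 and 94.3 CPM. It rose by 1.68 ± 0.40 at day 7 (adjusted p = 0.00328), in 25 of 25 alternative analyses, and its difference of 1.22 ± 0.42 at day 14 did not pass (adjusted p = 0.0949). That difference was 0.43 ± 0.43 without day 14 replicate 2 (adjusted p = 0.867) and passed without day 14 replicate 1 (adjusted p = 0.0256). At days 21 and 28 the differences were 0.35 ± 0.41 and 0.38 ± 0.43.

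Ifitm3 was among the readily counted genes at every time. At day 0 it held 156.3, 230.7, 114.8 and 199.5 CPM, and at day 7 794.2, 497.8, 420.6 and 180.8 CPM. At day 14 it held 230.3, 903.6 and 300.1 CPM, at day 21 458.9, 238.1, 402.9 and 337.4 CPM, and at day 28 185.3, 155.5 and 177.4 CPM. Day 7 overlapped with day 0 through replicate 4 and day 14 through replicate 1, by a margin under 1 CPM, whereas day 21 lay above and day 28 inside the day 0 range. Ifitm3 rose by 1.43 ± 0.39 at day 7 (adjusted p = 0.0092) and by 1.44 ± 0.41 at day 14 (adjusted p = 0.0328), and its difference at day 21 was 1.04 ± 0.38 (adjusted p = 0.0957). The day 7 call was lost without day 7 replicate 1 (adjusted p = 0.082). The day 14 call held in 19 of 25 alternative analyses. Without day 14 replicate 2 the difference was 0.59 ± 0.39 (adjusted p = 0.672), and the call was also lost without day 0 replicate 1 (0.0784), 3 (0.107) or 4 (0.0585) and with the replicate number (0.106) or the mouse number (0.0759) as a block. The day 21 difference passed without day 14 replicate 2 (adjusted p = 0.0469).

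Its close relative Ifitm2 passed on no day. Its libraries ranged from 160.8 to 221.8 CPM at day 0, 122.7 to 291.1 at day 7, 151.4 to 335.3 at day 14, 195.2 to 351.2 at day 21 and 168.0 to 250.9 at day 28, overlapping throughout. Differences against day 0 lay between 0.20 and 0.48 with SE of 0.28 to 0.31. No call was made for Ifitm2 in any of the 25 alternative analyses of any of the 4 days.

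**Figure D2:**
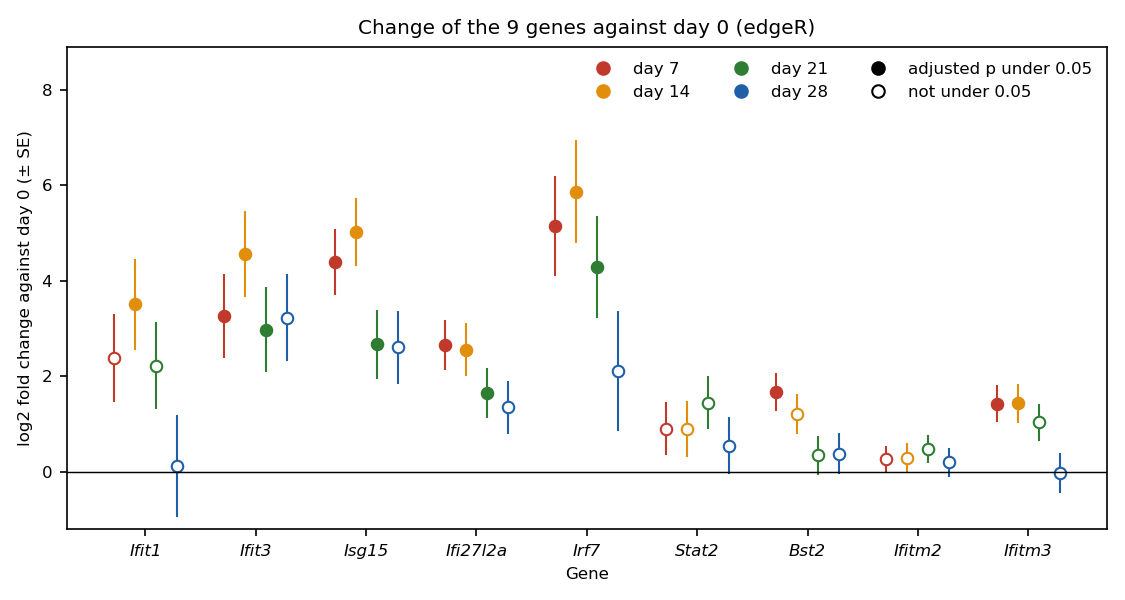
log2 fold change against day 0 (vertical axis) with standard error bars for each of the 9 genes (horizontal axis) at days 7, 14, 21 and 28, with filled points where the adjusted p was under 0.05. Irf7 shows the highest points, 5.15 to 5.87 at days 7 and 14, Ifitm2 stays below 0.5 on all 4 days, and no day 28 point is filled.

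Across the 9 genes, 6 rose at day 7 (Ifit3, Isg15, Ifi27l2a, Irf7, Bst2 and Ifitm3) and none fell, beside 19.8% of all tested genes called in either direction, 11.3% called higher and 8.53% called lower. The median log2 fold change of the 9 was 2.38, and that of all tested genes was 0.07. Without day 7 replicate 4 the median was 2.75 and 7 rose, Ifit1 being added. At day 14 6 rose (Ifit1 in place of Bst2), with a median of 2.56, beside 6.22% of tested genes called and 4.8% called higher. At day 21 4 rose (Ifit3, Isg15, Ifi27l2a and Irf7), with a median of 1.66, beside 8.84% called and 5.92% called higher. The day 14 count depended on a single library: without replicate 2 only Isg15 passed and the median was 1.47. The day 21 count fell to 1 without day 21 replicate 1 or 4, and to 2 without day 0 replicate 2, 3 or 4 or day 21 replicate 3. With the mouse number as a block in limma's voom analysis, 2 genes passed at day 14 (Isg15 and Ifi27l2a) and 1 at day 21 (Stat2).

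At day 28 none of the 9 passed, and the median was 0.55, beside 1.34% of tested genes called. Unadjusted, 3 of the 9 (Ifit3, Isg15 and Ifi27l2a) had a p under 0.05, and DESeq2 called 2 (Ifit3 and Isg15), as did edgeR without day 28 replicate 1. Of the 10312 tested genes, 1521 had an unadjusted p under 0.05 and DESeq2 called 366. Libraries lay above all day 0 libraries for 3 of the 9 genes at day 7, 5 at day 14, 4 at day 21 and 2 at day 28, where over all tested genes the share was 13.6%, 10.7%, 9.31% and 4.88%.

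The later days were also compared with one another. No gene of the 9 passed the test between days 14 and 7, where 1.66% of all genes were called. None had an unadjusted p under 0.05 and DESeq2 called 0, giving no adjusted p for Isg15. Over all tested genes 1100 had an unadjusted p under 0.05 and DESeq2 called 309. From day 7 to day 21 only Bst2 fell, by 1.33 ± 0.40 (adjusted p = 0.039), with every day 21 library below every day 7 library, beside 7.26% of genes called and 3.23% called lower. This call was lost without any one of day 7 replicates 1, 2 and 3 or any one of the 4 day 21 libraries, and without day 7 replicate 4 the count was 2 (Isg15 and Bst2). From day 7 to day 28 3 genes fell, beside 14.4% called and 8.05% called lower. Irf7 fell by 3.04 ± 0.98 (adjusted p = 0.038), Ifitm3 by 1.45 ± 0.43 (adjusted p = 0.023) and Bst2 by 1.30 ± 0.43 (adjusted p = 0.0448). The count was 0 without day 7 replicate 1, day 7 replicate 2 or day 28 replicate 2, 1 without day 28 replicate 1 or 3, and 5 without day 7 replicate 4, when Isg15 and Ifi27l2a were added. The Irf7, Ifitm3 and Bst2 calls held in 19, 20 and 10 of 25 alternative analyses. Isg15 was lower at day 28 than at day 7 without overlap, by a difference of -1.79 ± 0.63 that did not pass (adjusted p = 0.0579), whereas that of Ifit3 was -0.03 ± 0.78.

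Between days 21 and 14 no gene of the table was called by edgeR (0.0%), where 421 had an unadjusted p under 0.05 and DESeq2 called 43. Of the 9, 3 of the 9 (Ifit3, Isg15 and Bst2) had an unadjusted p under 0.05. The difference of Isg15 was -2.36 ± 0.60, with all day 21 libraries below all day 14 libraries. DESeq2 gave an adjusted p there only for Ifitm3 among the 9 (0.723), so it could not call the other genes. With no filter on low counts, edgeR called Isg15 (adjusted p = 0.0033). Between days 28 and 21, edgeR called 0.679% of genes and DESeq2 called 329, with none of the 9 among them. Unadjusted, 3 of the 9 (Ifit1, Irf7 and Ifitm3) had a p under 0.05, beside 1553 of all tested genes. Ifitm3 was lower at day 28 than at day 21 without overlap, by -1.06 ± 0.42 (adjusted p = 0.227). With no filter all 3 were called, with adjusted p of 0.0037, 0.00278 and 0.024. In the main fit even the unadjusted p of Ifit1 and Irf7 were larger, 0.0489 and 0.0344. Dropping the filter thus changed the test itself and not only the adjustment, and why was not tested.

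The order of the days differed between genes. By mean CPM, Ifit1, Ifit3, Isg15, Irf7 and Ifitm3 were highest at day 14, with 143.6 ± 179.2, 117.0 ± 131.1, 117.0 ± 118.8, 148.1 ± 209.6 and 478.0 ± 370.2 CPM (SD, n = 3). For all but Ifitm3 the SD exceeded the mean, and replicate 2 was the highest library in each case. Ifi27l2a and Bst2 were highest at day 7, with 204.8 ± 107.6 and 141.3 ± 49.6 CPM (SD, n = 4), and Stat2 and Ifitm2 at day 21, with 95.5 ± 57.1 and 263.0 ± 71.3 CPM (SD, n = 4). By medians of the day, which a single library moves less, Ifit1 was highest at day 21 (68.2 CPM) and Isg15 (77.8 CPM), Irf7 (99.6 CPM) and Ifitm3 (459.2 CPM) at day 7, while Ifit3 was still highest at day 14 (72.0 CPM). By means, days 7 and 14 were neighbours in the order for all 9 genes, and none of the 9 passed the test between these days.

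A wider list of 74 other interferon-stimulated genes was examined, of which 59 passed the filter. Of these 59, 31 rose at day 7, 22 at day 14, 8 at day 21 and 0 at day 28, and none fell on any of these days, with medians of 2.40, 2.30, 1.68 and 0.03. Of all tested genes 11.3%, 4.8% and 5.92% were called higher at days 7, 14 and 21, and 1.34% were called in either direction at day 28. At day 28 its median was thus near 0, beside 0.55 for the 9 genes, and DESeq2 called 2 of its genes and 366 of all tested genes. The smallest p-values at day 7 belonged to Lgals3bp, a secreted scavenger-receptor protein (2.96 ± 0.42, adjusted p = 1.37e-05), and Ly6e, a membrane protein (1.68 ± 0.30, adjusted p = 0.000222). Rnf213, a large ubiquitin ligase (3.60 ± 0.65), Ms4a6b (5.05 ± 0.96), Ifi30, a lysosomal thiol reductase of antigen processing (2.20 ± 0.44), and Slfn2, a Schlafen family member (3.83 ± 0.81), followed with adjusted p of 0.000248, 0.000439, 0.000705 and 0.00128. From day 7 to day 28, 18 of the 59 fell and none rose, beside 8.05% of all tested genes called lower.

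Day 14 replicate 2 was the highest library of its day for 57 of these 59 genes (96.6%) and the highest of all 18 for 43. Without it, 2 of the 59 rose at day 14 and the median was 1.11. Day 7 replicate 4 was the lowest of its day for 41 of the 59 (69.5%), and without it 32 rose and 1 fell at day 7. Other libraries moved the counts too: 17 rose at day 7 without day 7 replicate 2, 13 or 14 at day 14 without any one of the 4 day 0 libraries, 5 at day 21 without day 0 replicate 2 or 4 or day 21 replicate 1, 2 or 4, and 1 at day 28 without day 0 replicate 2 or 3 or day 28 replicate 1. The 18 that fell from day 7 to day 28 became 8, 7 or 11 without day 7 replicate 1, 2 or 3 and 6 without day 28 replicate 2 or 3. Counts over all genes in these refits are not given beside them. A loss of calls in this list therefore cannot be told from a loss over all genes.

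Targets of interferon gamma, a partly separate set, gave 12 higher and 1 lower of 23 tested at day 7, 9 higher at day 14, 3 at day 21 and 1, Ciita, at day 28, beside 11.3%, 4.8% and 5.92% of all tested genes called higher at days 7, 14 and 21. At day 28 1.34% of all tested genes were called in either direction. DESeq2 called 6 at day 21, where 10 had an unadjusted p under 0.05, beside 1276 and 2263 of all tested genes. Fcgr1, the high-affinity Fc receptor, rose by 6.28 ± 0.92 at day 7 (adjusted p = 2.11e-05), from a day 0 mean of 0.984 CPM. Irgm1, an immunity-related GTPase, rose by 2.53 ± 0.46 (adjusted p = 0.000269), Cxcl10, a chemokine, by 7.58 ± 1.69 (adjusted p = 0.00194) from 0.328 CPM, and Icam1, an adhesion molecule, by 1.65 ± 0.37 (adjusted p = 0.00217). Ciita, the activator of MHC class II genes, held no count at day 0 and was at least 6.55-fold higher at day 7 and at least 5.35-fold higher at day 28, against a floor of 3 counts per library. These bounds are for the mean of the day. Its day 28 libraries overlapped with day 0, so not every one of them held a count. The gene that fell was Fgl2, by 2.36 ± 0.36 (adjusted p = 3.91e-05), with means of 599.2 CPM at day 0 and 116.5 CPM at day 7. Without day 14 replicate 2, 2 of the 23 rose at day 14, without day 21 replicate 4, 1 rose at day 21, and the day 28 count was 0 without day 0 replicate 2, 3 or 4 or day 28 replicate 2 and 2 without day 28 replicate 1.

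Ligands, receptors and kinases of the pathway were examined next. Of 21 interferon genes in the table, covering types I, II and III, only Ifng held any count: 3 in day 7 replicate 4, 7 in day 14 replicate 2 and 1 in day 21 replicate 1. The other 20 had none in any library, which allows up to 3 counts in each, and none could be tested. Ifng is named here because it was the only interferon counted, a choice made after its values were seen. Of 5 tested receptor genes, Il10rb, a subunit shared by the interferon lambda and interleukin 10 receptors, rose at day 7 (2.03 ± 0.44, adjusted p = 0.00154), day 14 (1.66 ± 0.46, adjusted p = 0.0289) and day 21 (1.52 ± 0.44, adjusted p = 0.0303). Ifngr1, a subunit of the interferon gamma receptor, rose at day 7 (1.03 ± 0.26, adjusted p = 0.00516). Its libraries also lay above all day 0 libraries at days 14 and 21, with differences of 0.80 ± 0.27 (adjusted p = 0.0887) and 0.80 ± 0.26 (adjusted p = 0.0507) that did not pass. DESeq2 called 3, 3 and 2 of the 5 receptor genes at days 7, 14 and 21, where edgeR called 2, 1 and 1. Of the 10312 tested genes, DESeq2 called 2382, 860 and 1276 in either direction on these days, and edgeR called 11.3%, 4.8% and 5.92% higher.

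Among 6 tested Janus kinase and STAT genes, Tyk2, a kinase of the type I receptor, was the 1 that rose at day 7 (1.69 ± 0.52, adjusted p = 0.0231), a share near the 11.3% of all tested genes called higher, and DESeq2 called 2. At the later times 0 passed at days 14, 21 and 28 by edgeR's quasi-likelihood test, where 2, 3 and 2 had an unadjusted p under 0.05 and DESeq2 called 0. Over all tested genes 1770, 2263 and 1521 had such a p on these days. DESeq2 called 2382, 860, 1276 and 366 of all genes at days 7, 14, 21 and 28. Of 10 tested interferon regulatory factors, 4 rose at day 7: Irf7, Irf5 (4.19 ± 0.62, adjusted p = 2.62e-05), Irf8 (4.20 ± 0.99, adjusted p = 0.00303) and Irf1 (1.55 ± 0.54, adjusted p = 0.0444). Irf5 and Irf8 are also known as regulators in myeloid cells. Irf5 and Irf7 were the 2 called at days 14 and 21, and without day 14 replicate 2 the day 14 count was 0 and without day 21 replicate 1 the day 21 count was 1. These counts stand beside 11.3%, 4.8% and 5.92% of all tested genes called higher at days 7, 14 and 21.

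Of 21 tested genes of nucleic acid sensing, 5 rose at day 7 and 5 at day 14, 2 at day 21 and 0 at day 28, and none fell, beside 11.3%, 4.8% and 5.92% of all tested genes called higher at days 7, 14 and 21. DESeq2 called 5 at day 21, where 8 had an unadjusted p under 0.05, and 0 at day 28, where edgeR gave 0 with an unadjusted p under 0.05. Over all tested genes DESeq2 called 1276 and 366 at days 21 and 28, and 2263 and 1521 had an unadjusted p under 0.05. Unc93b1, which carries nucleic-acid-sensing Toll-like receptors to endosomes, rose by 2.94 ± 0.46 at day 7 (adjusted p = 4.94e-05), and Sting1, the adaptor of cytosolic DNA sensing, by 3.69 ± 0.69 (adjusted p = 0.000365). Ifih1, a sensor of double-stranded RNA, rose by 2.71 ± 0.93 (adjusted p = 0.0415). Tlr7 and Zbp1 held no count at day 0 and were at least 3.55-fold and at least 4.64-fold higher at day 7. The day 7 count was 2 without day 7 replicate 1 or 2. At day 14, 1 rose when day 14 replicate 2 was left out and 3 when day 0 replicate 2, 3 or 4 or day 7 replicate 1 or 2 was. The day 21 count was 1 without day 0 replicate 1 or 2, day 7 replicate 1, 2 or 3, day 14 replicate 2 or 3 or any day 21 library.

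Of the 6 genes of ISG15 conjugation, 4 rose at day 7: Isg15 itself, the activating enzyme gene Uba7 (2.94 ± 0.87, adjusted p = 0.0174), the ubiquitin ligase gene Trim25 (1.62 ± 0.58, adjusted p = 0.0488) and Usp18, which encodes the protease that removes ISG15 (3.98 ± 1.10, adjusted p = 0.0108). At day 14 Isg15 and Usp18 were called (Usp18 5.26 ± 1.13, adjusted p = 0.0048), and at day 21 Isg15 alone, where DESeq2 called 2. Over all tested genes edgeR called 11.3%, 4.8% and 5.92% higher at days 7, 14 and 21, and DESeq2 called 1276 genes at day 21. Among 12 negative regulators of the pathway, 4 rose and 1 fell at day 7. Those that rose were Ptpn6, the phosphatase SHP-1 of blood cells (6.28 ± 0.90, adjusted p = 1.77e-05), Socs3 (5.40 ± 1.23, adjusted p = 0.00229), Usp18 and Ptpn1 (1.18 ± 0.36, adjusted p = 0.0195). Pias1 fell, by 1.19 ± 0.33 (adjusted p = 0.0106), and 1 of 12 is a share near the 8.53% of all tested genes called lower. Members of these lists overlap, Usp18 and Irf7 among them.

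**Figure D3:**
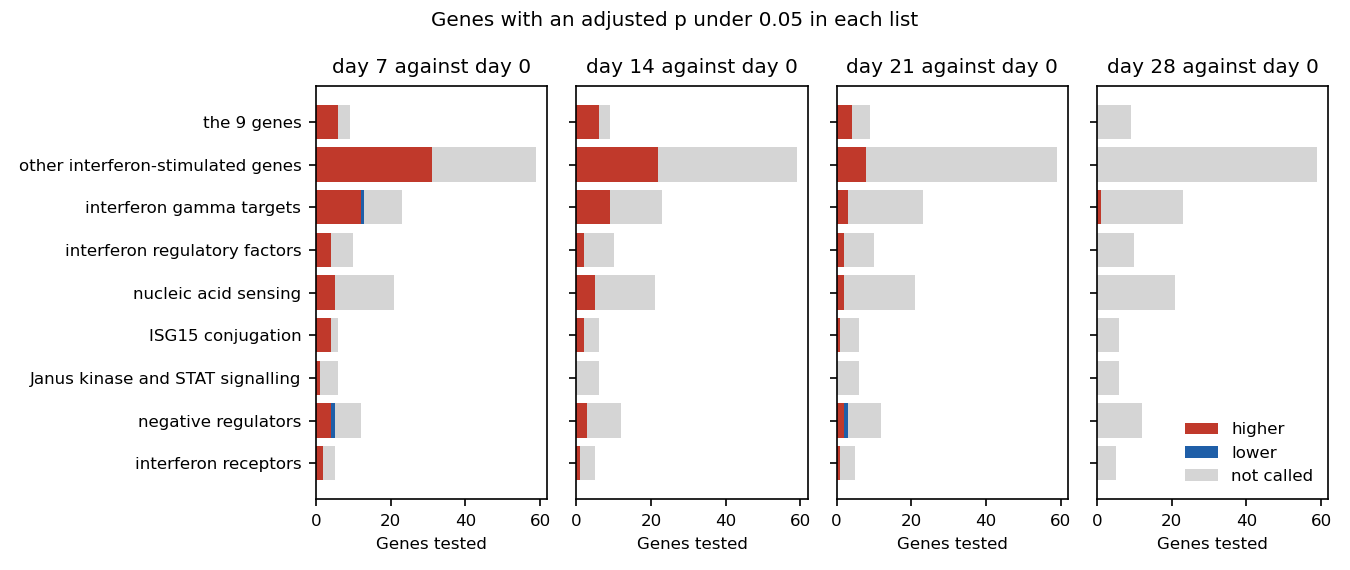
Number of tested genes (horizontal axis) that were higher, lower or not called at an adjusted p under 0.05 in each list (vertical axis), one panel per day against day 0. The other interferon-stimulated genes give 31, 22, 8 and 0 higher of 59 at days 7, 14, 21 and 28, and the 9 genes give 6, 6, 4 and 0.

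Close relatives of the 9 were mostly too low to test. Of 11 paralogs in the table, 10 held a count and 4 were tested. Ifitm1, which held no count at day 0, was at least 6.04-fold higher at day 7 (adjusted p = 0.00414) and at least 4.02-fold higher at day 14 (adjusted p = 0.026), when 27 of its 28 counts came from replicate 2. Ifit3b was called at day 14 only (3.61 ± 1.10, adjusted p = 0.0488), with 41 of 58 counts in replicate 2. Ifi27, which overlaps Ifi27l2a on the other strand, had differences of -0.58 ± 0.31 at day 7 and -0.15 ± 0.33 at day 14 that did not pass (adjusted p = 0.216 and 0.898), with means of 330.2 CPM at day 0 and 220.6 CPM at day 7. Ifitm10 was between 5.88 and 12.0 CPM on average on all 5 days, with no call against day 0. The other 6 relatives with counts (Ifi27l2b, Ifit1bl1, Ifit2, Ifitm5, Ifitm6 and Ifitm7) did not pass the filter.

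Markers of other cell types changed over the same days. The 10 macrophage markers (Adgre1, Csf1r, Cd68, Aif1, Mrc1, C1qa, C1qb, C1qc, Mertk, Mpeg1) summed to 95.4 to 278.4 CPM at day 0, 1900 to 3276 at day 7, 684.6 to 1472 at day 14, 972.6 to 1573 at day 21 and 406.8 to 576.8 at day 28. All but Mertk rose at days 7, 14 and 21, and 3 of the 10 rose at day 28. The 4 monocyte markers (Ly6c2, Ccr2, Plac8, Chil3) summed to 0 to 58.1 CPM at day 0, 50.1 to 463.0 at day 7, 52.8 to 420.0 at day 14, 30.3 to 97.7 at day 21 and 0 to 44.7 at day 28, and the 6 neutrophil markers to 0 to 2.63, 188.9 to 682.0, 12.8 to 185.3, 14.0 to 503.2 and 0 to 276.4 CPM. Markers of plasmacytoid dendritic cells, a specialised source of type I interferon, summed to at most 23.7 CPM in any library, and none of the 5 was tested. The 5 NK cell markers summed to at most 1.49 CPM at day 0 and 16.2 to 57.8 CPM at day 7, and T cell and B cell markers to at most 49.9 and 21.6 CPM in any library; none of these was tested. Red blood cell markers summed to 40.2 to 369.4 CPM at day 0 and 163.8 to 2328 CPM at day 7, where 3 of 4 rose, and to at most 291.0 CPM later. Of 6 endothelial markers, Cdh5 (1.86 ± 0.40, adjusted p = 0.00134), Kdr (5.79 ± 1.15, adjusted p = 0.00067) and Egfl7 (1.52 ± 0.39, adjusted p = 0.00682) rose at day 7 and Vwf fell by 2.61 ± 0.54 (adjusted p = 0.00107). Of 6 fibroblast markers, 1 rose and 3 fell at day 7. Among all tested genes 11.3% were called higher and 8.53% lower at day 7. At days 14 and 21, 4.8% and 5.92% were called higher, and at day 28 1.34% in either direction. The part of these cells in the changes of the 9 genes was not tested.

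The libraries that stood apart differed in some of these sums and not in others. In day 14 replicate 2 the monocyte sum was 420.0 CPM against 52.8 and 108.3 CPM in replicates 1 and 3, and the neutrophil sum was 185.3 CPM against 12.8 and 19.6 CPM. Its macrophage sum was 1472 CPM, close to the 1375 CPM of replicate 3, in which the 9 genes were at 806.3 CPM. In day 7 replicate 4 the monocyte sum was 50.1 CPM against 280.3 to 463.0 CPM in the other three, whereas its macrophage sum, 2246 CPM, lay between those of the other libraries of that day. Its red blood cell sum, 2328 CPM, was the highest of all 18 libraries. Its smooth muscle sum was 6973 CPM against 1490 to 3383 CPM in the other day 7 libraries, and its neutrophil sum 188.9 CPM against 224.6 to 682.0 CPM. Smooth muscle markers summed to 7244 CPM in day 14 replicate 2, 22940 CPM in replicate 1 and 8335 CPM in replicate 3. What set these libraries apart was not tested.

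**Figure D4:**
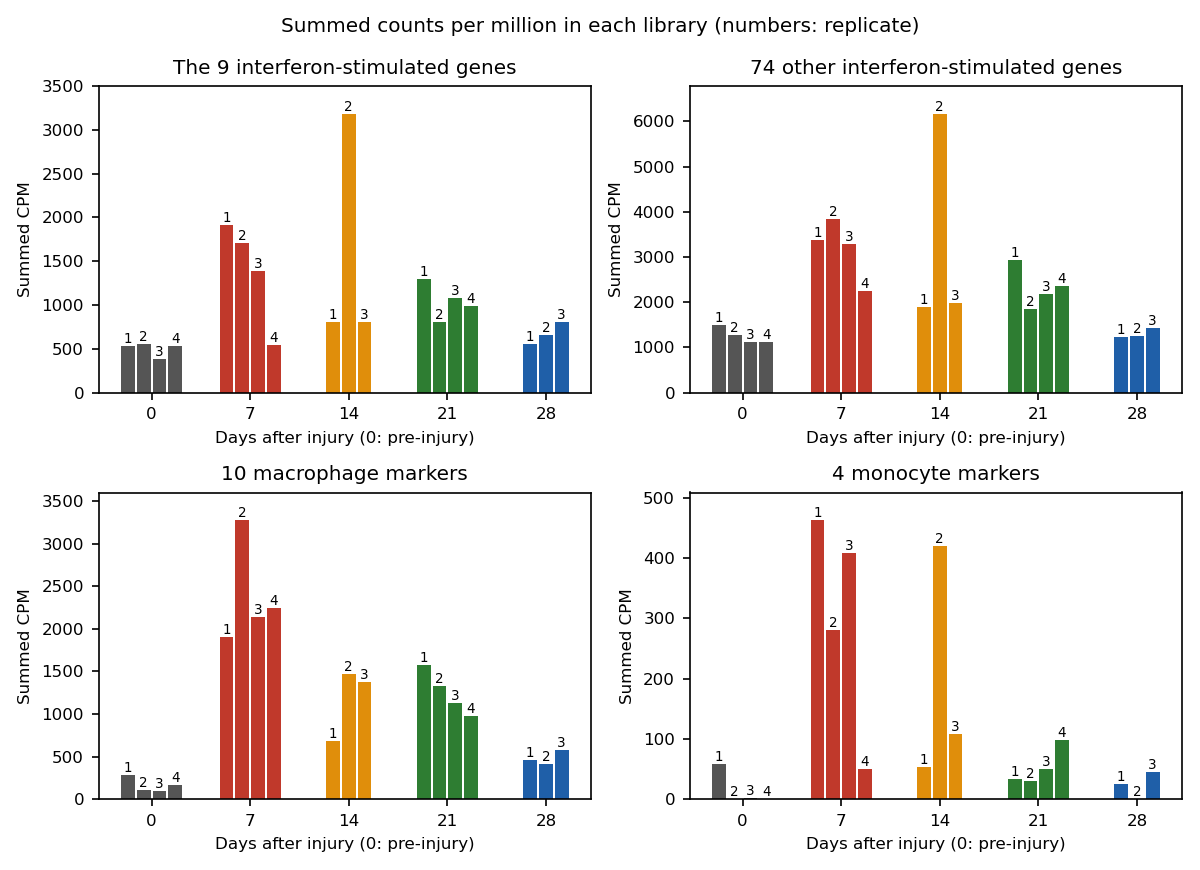
Summed CPM (vertical axes, from 0) of the 9 genes, 74 other interferon-stimulated genes, 10 macrophage markers and 4 monocyte markers, with a bar per library, numbered by replicate, against days after injury (horizontal axis). Replicate 2 of day 14 reaches 3182 and 6164 CPM in the upper panels, replicate 4 of day 7 is the lowest of its day there, and in the macrophage panel neither is the extreme low or high of all libraries.

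For each of the 9, the gene with the most similar pattern was found as the one with the smallest root mean square difference in centred log2 CPM over the 18 libraries. The pairs were Ifit1 with Rsad2 (0.942), Ifit3 with Casp4 (0.895), Isg15 with Zmynd15 (0.728), Ifi27l2a with Cndp2 (0.565), Irf7 with Ifi47 (0.742), Stat2 with Ube2w (0.511), Bst2 with Necap2 (0.416), Ifitm2 with Gm5244 (0.301) and Ifitm3 with B2m (0.425). Rsad2 encodes viperin, an interferon-induced antiviral enzyme, Ifi47 an interferon-inducible GTPase, and B2m the light chain of MHC class I. Over all tested genes the median difference was between 0.836 for Ifitm2 and 2.02 for Irf7. The libraries share depth and composition, so these values describe likeness only.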

How the data were processed

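The authors' table holds estimated counts per gene as whole numbers, from UMI-deduplicated 75-base MACE reads quantified by Salmon 1.9.0 against the mm39 transcriptome; annotation release and strand are not given in the sources used here. The authors' deposited DESeq2 1.36.0 table (normalised counts, fold changes and p-values) was not used. Groups came from the labels, with 440675 to 878310 counts per library; intervals and floors cover counting error only. CPM and all tests were computed here with edgeR 4.0.16 in R 4.3.3: filterByExpr by day (minimum count 10), TMM, a model with a mean per day over all 18 libraries (biological coefficient of variation 0.449) and the quasi-likelihood test, with Benjamini-Hochberg adjustment over 10312 of 35655 genes; 17606 genes held no count. The estimated counts needed no rounding. The code was tested on simulated data. Alternatives were DESeq2 1.42.0, RLE or no normalization factors, no filter, only the days compared, replicate number as a block, mouse number as a random block (limma 3.58.1 voom) and leaving out each library.

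The members and lists were chosen with earlier results of these data known. Genes named beyond the 9 were, from each list, at most 6 passing against day 0 with the smallest p at day 7 (then on the day with the smallest p), paralogs with counts, and the nearest gene in pattern; gene names came from the table. Some genes of the lists are not reported here. Deviations from day means correlated at a median of -0.0057 over 33 same-numbered pairs of libraries and 0.0423 over 3 pairs with the same mouse number.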

Additional observations from a re-analysis of the deposited data

Results flagged for a closer look

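Irf7 at day 0 replicate 2 (8.37 CPM) stood apart from the other 3 day 0 libraries, all at 0; of 27 groups of 4 libraries examined, this was the only one past Dixon's 95% value of 0.829 for 4 samples. With the other 3 tied at 0 counts, the gap fills the whole range whatever the highest value is, so the floor of counting set this result.

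For 3 genes the effect against day 0 differed between days by the test of the difference itself. Bst2 was lower at day 21 than at day 7 by a log2 difference of -1.33 (adjusted p = 0.039) and at day 28 than at day 7 by -1.30 (adjusted p = 0.0448). Irf7 differed by -3.04 (adjusted p = 0.038) and Ifitm3 by -1.45 (adjusted p = 0.023) between days 28 and 7. Each of these edgeR calls was lost when some single libraries of the days compared were left out. The Bst2 call between days 28 and 7 held in 10 of 25 alternative analyses. It was also lost without some libraries of other days, with no normalization factors (adjusted p = 0.0645) and with only the days compared (0.0922). The Irf7 call was also lost with DESeq2 (adjusted p = 0.0563) and with the mouse number as a block (0.184).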

How the results depend on the processing

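Of 2018 single-gene results recomputed for the 9 genes, 1896 kept their side of the threshold, 83 lost a call, 39 gained one and none of those called reversed. Results called in neither fit were counted as kept even where the sign changed. For Ifitm2 at day 14 against day 0, the difference went from 0.29 to -0.08 without day 14 replicate 2. Counts of genes called moved by more than 1.5 times as follows. With no filter on low counts there were 7 for day 21 against day 0, 3 for day 28 against day 0, 3 for day 21 against 7, 6 for day 28 against 7, 1 for day 21 against 14 and 3 for day 28 against 21. DESeq2 gave 2 for day 28 against day 0 and 2 for day 21 against 7, and fitting only the days compared gave 2 for the latter. With the mouse number as a random block in voom (consensus correlation 0.0869) there were 2 at day 14 and 1 at day 21 against day 0. The replicate block gave 0 for day 21 against 7; the numbers did not pair the libraries (correlations of -0.1323 to 0.2046). Leaving out single libraries gave 5 to 7 genes at day 7, 1 to 7 at day 14, 1 to 5 at day 21 and 0 to 2 at day 28 against day 0, 0 to 2 for day 21 against 7, 0 to 5 for day 28 against 7 and 0 for the other comparisons. Recomputing the further lists was chosen after seeing the data: of the 59 other interferon-stimulated genes, fitting only the days compared called 13 at day 7, 3 at day 14 and 10 between days 28 and 7; no filter called 36, 24 and 2 at days 14, 21 and 28; DESeq2 called 14 and 2 at days 21 and 28; and the replicate and mouse blocks called 12 and 9 at day 14. For the 23 interferon gamma targets, fitting only the days compared called 8, 5, 1 and 0 at days 7, 14, 21 and 28, no filter 8 and 2 at days 21 and 28, the mouse block 6 and 0, DESeq2 6 at day 21 and the replicate block 0 at day 28. For the 21 genes of nucleic acid sensing, fitting only the days compared called 2, 2 and 1 at days 7, 14 and 21, the replicate block 3 at day 14 and DESeq2 5 at day 21; for the interferon regulatory factors it was 1 at day 14 with only the days compared. Over all genes, DESeq2 called 366 for day 28 against day 0 (edgeR 138), 998 for day 21 against 7 (edgeR 749) and 329 for day 28 against 21 (edgeR 70). Other scalings moved the median of all genes by at most 0.0934 (log2). The cause of these shifts was not tested. Apart from DESeq2, counts over all genes are not given for these refits or for those without single libraries. Calls lost or gained in the 9 genes and the lists therefore cannot be told from changes over all genes. Low counts limit Irf7, Isg15 and Ifit3 at day 0, where they held 7, 10 and 14 counts in all.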
